A study of Mus musculus with 8 samples.

Results

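The 10 genes described here encode receptors, ligands and targets of Notch signaling: the receptors *Notch1*, *Notch2* and *Notch3*, the ligands *Jag1*, *Jag2* and *Dll1*, and the target genes *Hes1*, *Hey1*, *Heyl* and *Nrarp*. They were picked by symbol from a table of raw RNA-seq counts that lists 53465 genes, and all 10 symbols were found. Notch signaling passes between touching cells. A ligand on the surface of 1 cell pulls on a receptor of its neighbor, proteases of the ADAM family and γ-secretase then cut the receptor, and the freed intracellular domain joins RBPJ and Mastermind proteins in the nucleus to switch on HES and HEY repressors and the feedback inhibitor *Nrarp*. In the pancreas the pathway guides progenitor and ductal fate, and in many epithelial cells it acts together with TGFβ signaling, in which SMAD4 pairs with SMAD2 and SMAD3 as a transcription factor.

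The cells were mouse pancreatic ductal adenocarcinoma (PDAC) cells of the lines B73 and B87, both cultured from primary tumors of the pancreas in the KC-shSmad4 model. In that model, which both lines and every group share, *Ptf1a*-Cre acts in the pancreas to turn on the transactivator rtTA3 with the reporter mKate2 from *Rosa26*, and a GFP-linked shRNA against *Smad4* at *Col1a1* is expressed only with doxycycline (Dox). Which of the model's independent *Smad4* hairpins each line carries was not given in the sources used here. Cells held on Dox are Smad4 off, and cells kept without Dox for 5 days before plating are Smad4 on. Treatment began 24 h after plating. For 24 h, each state was then given TGFβ1 at 100 pM or SB505124, which blocks the kinase of the type I TGFβ receptor, at 2.5 µM. This gave 4 groups of 2 libraries, 1 from each line, so that each line is a single culture in a condition. The main model takes out the constant difference between the lines. Its p-values therefore measure the scatter left after that, which is how far the 2 lines differ in their changes between conditions. All 8 libraries carry a *Smad4* hairpin, and the return of *Smad4* and the removal of Dox therefore cannot be told apart. No group was left untreated, so every change with TGFβ1 given below is against SB505124. An effect of the added TGFβ1 and an effect of the blocked receptor cannot be told apart either.

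Library totals lay between 18389235 and 23440550 counts, at which 3 counts, taken as the smallest detectable level, correspond to 0.125 to 0.162 CPM (counts scaled to a common library size after TMM normalization). These floors reflect counting error alone. *Smad4*, the targeted gene, was at 33.7 to 35.5 CPM in the 4 Smad4-off libraries and at 97.4 to 117 CPM in the 4 Smad4-on libraries. The keratins *Krt8*, *Krt18* and *Krt19* were expressed in every library, whereas *Epcam*, a surface marker of epithelial cells, lay between 0.153 and 2.11 CPM. Of other cell types, the endocrine markers were listed at 0. The fibroblast list held expressed genes, *Acta2* at 10.2 to 701 CPM, *Col1a1* at 0.349 to 627 and *Pdgfrb* at up to 27.2, beside *Dcn* at no more than 0.149 and *Lum* at 0. Of the endothelial list *Kdr* reached 25.2 CPM and *Pecam1* 0.214, and of the leukocyte list *Cd68* was at 1.17 to 6.29 CPM and *Ptprc* at no more than 0.153.

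On a common scale of CPM per kilobase of exon, *Jag1*, *Hes1* and *Notch2* were the 3 most abundant members in every library, and their order differed between conditions. In the 4 SB505124 libraries *Hes1* (13.7 to 19.7) and *Notch2* (13.3 to 15.1) overlapped, and both lay above *Jag1* (6.82 to 10.96). In the Smad4-off TGFβ1 libraries *Hes1* (26.5 in B73 and 28.8 in B87) lay above *Jag1* (21.4 and 23.2), and *Jag1* above *Notch2* (16.5 and 18.0). In the Smad4-on TGFβ1 libraries *Jag1* (95.9 and 57.8) came first, then *Hes1* (33.0 and 38.4) and *Notch2* (19.4 and 18.5). Of the other members, *Notch1* ran from 1.56 to 6.29 over the 8 libraries, *Jag2* from 0.608 to 9.29, *Nrarp* from 0.790 to 2.14 and *Dll1* from 0.508 to 3.35, and these ranges overlapped. *Notch3* ran from 0.0568 to 0.568 and *Hey1* from 0.0625 to 0.612, and *Heyl* reached at most 0.166.

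**Figure D1:**
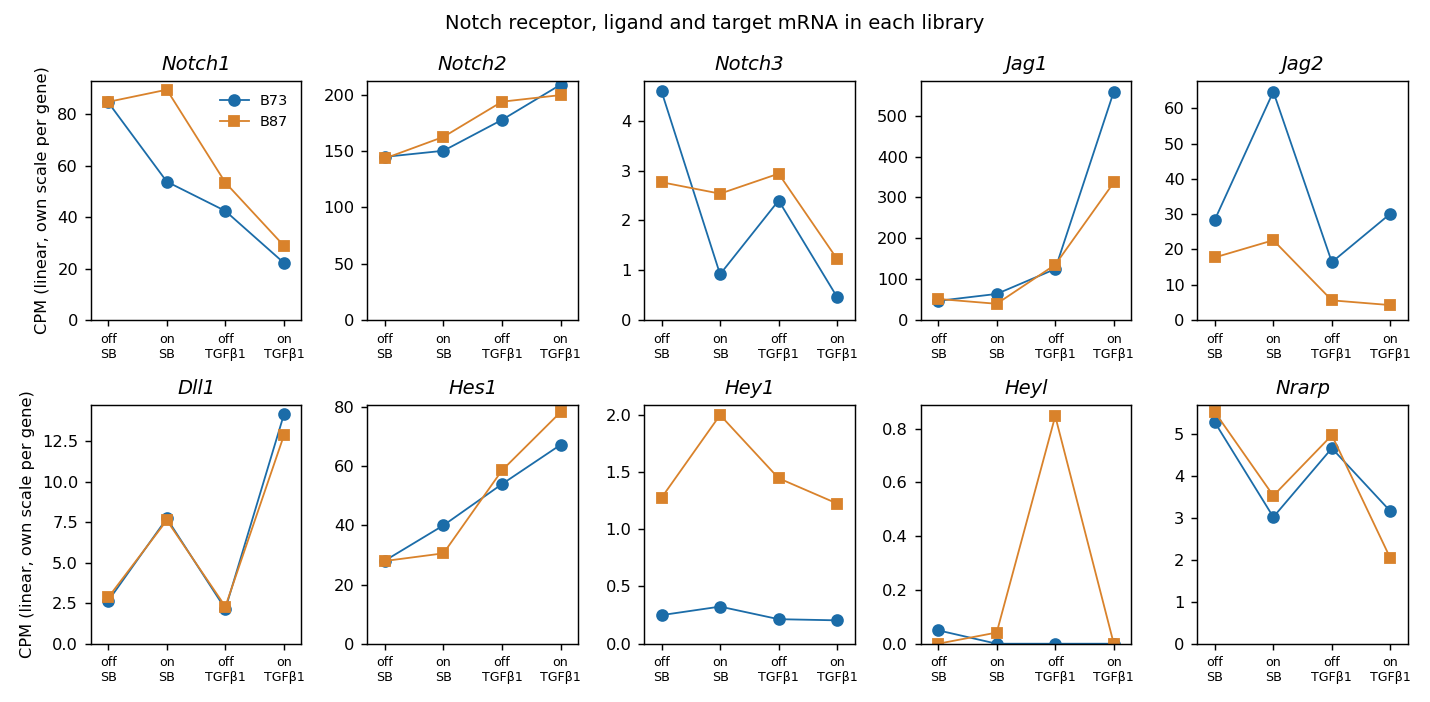
CPM (linear axis, own scale per gene) of the 10 members in each of the 8 libraries. The groups are Smad4 off or on under SB505124 (SB) or TGFβ1, circles are line B73 and squares line B87, and lines only join libraries of the same line. *Jag1* is highest in the Smad4-on TGFβ1 libraries (559 and 337 CPM), and *Dll1* is high in all 4 Smad4-on libraries (7.61 to 14.1 CPM). *Hey1* separates the lines over all 8 libraries, and *Jag2* only within each group.

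Of the 10 members, 9 passed the filter on low counts and were tested, and *Heyl* did not pass it. In what follows a gene passed when its edgeR adjusted p (Benjamini-Hochberg, over 14301 genes) was under 0.05, and was called when its change was also over 2-fold. With Smad4 on against off under TGFβ1, 2 of the 9 members were called, *Jag1* and *Dll1*, both higher, where 3.12% of all tested genes were called and 1.31% were called higher. Under SB505124 the same contrast called 1 of 9, *Dll1*, higher, against a background of 1.09% called and 0.636% called higher. With TGFβ1 against SB505124 in Smad4-on cells, 4 of 9 were called, *Jag1* and *Hes1* higher and *Notch1* and *Jag2* lower, against 13.9% of all genes, 5.62% higher and 8.31% lower. In Smad4-off cells TGFβ1 called 2 of 9, *Jag1* and *Hes1*, both higher, against 5.93% called and 3.11% called higher. The 4 contrasts share libraries in pairs, so their counts are not independent of each other.

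Members moved in both directions. Their median log2 fold change was 0.14 against -0.01 for all genes with Smad4 on against off under TGFβ1, and 0.12 against 0.00 under SB505124. For TGFβ1 against SB505124 it was -0.34 against -0.02 in Smad4-on cells and -0.17 against -0.02 in Smad4-off cells. The median size of the change, regardless of sign, was 0.89 in members and 0.21 over all genes with Smad4 on against off under TGFβ1. In Smad4-on cells treated with TGFβ1 it was 1.04 in members and 0.34 over all genes. The members were chosen with earlier results of these data known. Their larger changes and their counts of calls are therefore descriptions, not tests of the list.

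**Figure D2:**
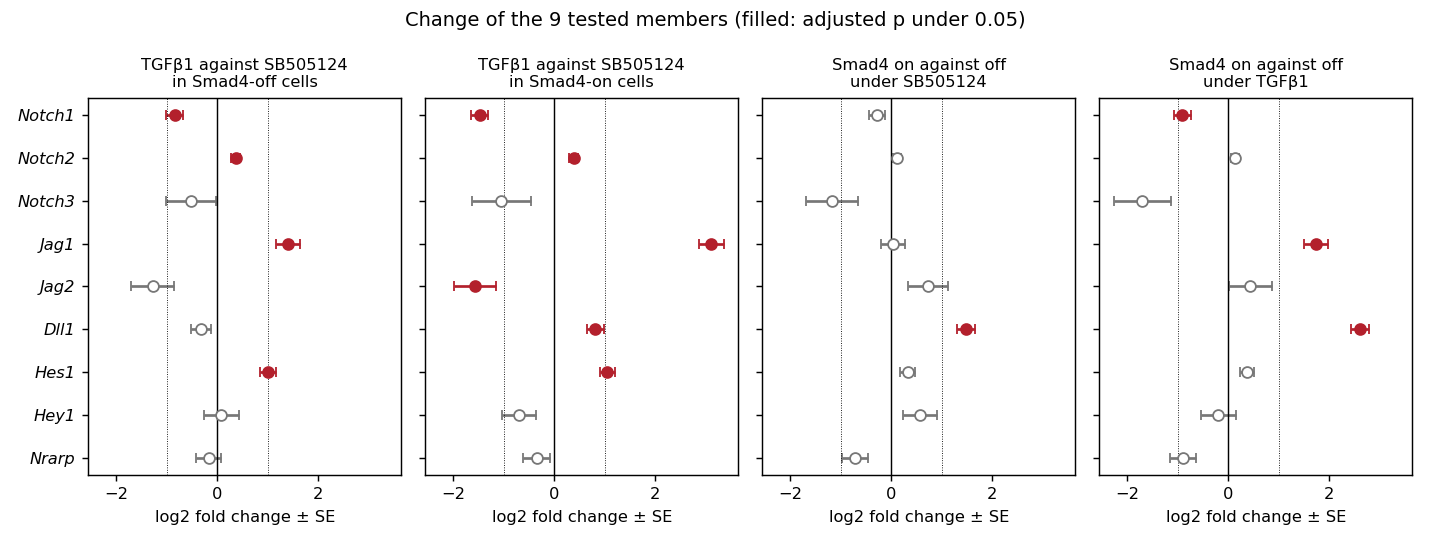
Log2 fold change with its standard error for the 9 tested members in the 4 two-group comparisons (4 libraries each, spread estimated from all 8). Filled points have an edgeR adjusted p under 0.05 and dotted lines mark 2-fold. *Jag1* reaches 3.11 with TGFβ1 in Smad4-on cells, *Dll1* 2.60 with Smad4 on under TGFβ1, and *Notch1* lies to the left in every panel.

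Among the ligands, *Jag1* (chr2:137081456-137116644 on GRCm38), which encodes the Jagged1 protein, rose with TGFβ1 in both *Smad4* states and was highest with Smad4 on under TGFβ1. Whether its rise differed between the states is given below as an interaction. In Smad4-off cells it was at 46.9 CPM in B73 and 51.6 CPM in B87 under SB505124, and at 125 and 135 CPM under TGFβ1. In Smad4-on cells it was at 63.9 and 39.7 CPM under SB505124, and at 559 and 337 CPM under TGFβ1. The SB505124 libraries of both *Smad4* states overlapped, whereas each TGFβ1 library lay above all 4 SB505124 libraries and the Smad4-on TGFβ1 pair lay above everything else. The rise with TGFβ1 was 3.11 ± 0.252 (log2 fold change ± SE, adjusted p = 0.000282) in Smad4-on cells, or 8.63-fold, and nearly equal in the lines (3.13 in B73 and 3.08 in B87). In Smad4-off cells it was 1.40 ± 0.240 (adjusted p = 0.0125). That call was lost in the fit with no replicate block, which leaves the cell line out of the model (adjusted p = 0.0934), and without either the B73 library on SB505124 (0.0559) or the B87 library on TGFβ1 (0.0999).

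With Smad4 on against off under TGFβ1, *Jag1* was 3.34-fold higher (1.74 ± 0.238, adjusted p = 0.00948), by 2.16 in B73 and by 1.31 in B87. This call was lost with no replicate block (adjusted p = 0.107) and without the Smad4-off TGFβ1 library of B73 (0.0891). Under SB505124 the difference was 0.03 ± 0.241 (adjusted p = 0.975), and the lines lay on opposite sides of 0, at 0.45 and -0.38.

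*Dll1* (chr17:15367354-15376872), which encodes the ligand Delta-like 1, followed the *Smad4* state whichever treatment was given. Under SB505124 it was at 2.65 CPM in B73 and 2.86 in B87 with Smad4 off, and at 7.73 and 7.61 with Smad4 on. Under TGFβ1 it was at 2.14 and 2.29 CPM with Smad4 off, and at 14.1 and 12.8 with Smad4 on. The 4 Smad4-on libraries all lay above the 4 Smad4-off libraries, and the lines differed little within any group. *Dll1* was higher with Smad4 on by 2.60 ± 0.185 under TGFβ1 (6.08-fold, adjusted p = 0.0014) and by 1.48 ± 0.181 under SB505124 (2.78-fold, adjusted p = 0.0145). The call under TGFβ1 remained with no replicate block (adjusted p = 0.0132), and that under SB505124 did not (0.119), nor did it without any 1 of the 4 SB505124 libraries (0.0621 to 0.113). With TGFβ1 against SB505124, *Dll1* was higher by 0.81 ± 0.167 in Smad4-on cells (adjusted p = 0.0108), which passed but stayed under 2-fold. The difference in Smad4-off cells was -0.31 (adjusted p = 0.343). The rise in Smad4-on cells no longer passed without the B73 library of either treatment or the B87 library on SB505124 (0.0573 to 0.0768). Of the 75-base stretches of *Dll1* transcripts, 13.7% also lie in the antisense gene *A930024N18Rik*, which had at most 4 counts in any library.

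*Jag2* (chr12:112907819-112929776), the other Jagged ligand, fell with TGFβ1 in Smad4-on cells, where *Jag1* rose. It was at 28.4 CPM in B73 and 17.7 in B87 in Smad4-off cells on SB505124, and at 16.4 and 5.58 on TGFβ1. In Smad4-on cells it was at 64.7 and 22.6 CPM on SB505124, and at 30.2 and 4.23 on TGFβ1. Within each line both TGFβ1 libraries were below their SB505124 partners, and the groups overlapped in Smad4-on but not in Smad4-off cells. In Smad4-on cells *Jag2* fell by 1.56 ± 0.410 on the log2 scale (adjusted p = 0.026), by 1.10 in B73 and by 2.39 in B87. The call was lost with no replicate block (0.415 in edgeR and 0.298 in DESeq2) and without the SB505124 library of B73 (0.103), that of B87 (0.0928) or the TGFβ1 library of B87 (0.059). Its size ran from -0.97 without the TGFβ1 library of B87 to -2.57 without that of B73. In Smad4-off cells the difference was -1.28 ± 0.422 (adjusted p = 0.0969), and it passed in DESeq2 with the line in the model (0.0159). No difference with *Smad4* passed: 0.44 (adjusted p = 0.583) under TGFβ1, with B73 at 0.87 and B87 at -0.39, and 0.72 (0.515) under SB505124.

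The promoters of the ligands that moved, and of *Notch1*, are shown because these members changed together or in opposite directions with TGFβ1 or *Smad4*. The sequences are from RefSeq on GRCm38.p6 and run 5′ to 3′ on the gene's strand, from 250 bases before to 50 bases after an annotated start. They are *Jag1* at chr2:137116471-137116770, *Dll1* at its starts 1 and 2 at chr17:15375774-15376073 and chr17:15376883-15377182, *Jag2* at chr12:112929446-112929745 and *Notch1* at chr2:26503773-26504072, all on the minus strand. These starts lie inside the genes' spans in the deposited table, except start 2 of *Dll1*. Capitals mark matches to the SMAD-type motif CAGAC, which reads GTCTG on the other strand, and to the AP-1-type motif. The latter is TGACTCA, read from the other strand as TGAGTCA, and its variant form TGATTCA, read from the other strand as TGAATCA.
Jag1: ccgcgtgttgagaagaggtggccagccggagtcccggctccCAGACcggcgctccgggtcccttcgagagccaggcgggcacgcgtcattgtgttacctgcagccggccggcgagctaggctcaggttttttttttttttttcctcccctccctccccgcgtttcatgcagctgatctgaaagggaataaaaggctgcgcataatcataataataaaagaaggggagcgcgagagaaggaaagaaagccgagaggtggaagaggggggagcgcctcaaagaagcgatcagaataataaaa
Dll1, start 1: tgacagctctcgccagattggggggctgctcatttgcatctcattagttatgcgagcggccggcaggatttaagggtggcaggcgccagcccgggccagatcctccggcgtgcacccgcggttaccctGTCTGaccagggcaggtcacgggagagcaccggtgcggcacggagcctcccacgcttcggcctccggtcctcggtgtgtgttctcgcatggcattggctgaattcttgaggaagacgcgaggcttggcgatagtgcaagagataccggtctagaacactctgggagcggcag
Dll1, start 2: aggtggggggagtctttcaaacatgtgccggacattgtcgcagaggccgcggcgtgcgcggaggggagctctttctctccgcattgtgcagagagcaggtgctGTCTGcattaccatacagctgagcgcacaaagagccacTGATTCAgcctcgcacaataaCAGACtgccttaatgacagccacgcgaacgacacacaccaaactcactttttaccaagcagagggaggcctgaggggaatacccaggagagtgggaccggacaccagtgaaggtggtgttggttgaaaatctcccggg
Jag2: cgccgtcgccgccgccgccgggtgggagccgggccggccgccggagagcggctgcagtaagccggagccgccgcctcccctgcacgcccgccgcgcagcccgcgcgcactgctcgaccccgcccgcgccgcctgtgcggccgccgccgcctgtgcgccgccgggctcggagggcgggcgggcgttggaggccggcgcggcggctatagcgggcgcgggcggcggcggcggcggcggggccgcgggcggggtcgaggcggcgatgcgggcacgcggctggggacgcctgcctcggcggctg
Notch1: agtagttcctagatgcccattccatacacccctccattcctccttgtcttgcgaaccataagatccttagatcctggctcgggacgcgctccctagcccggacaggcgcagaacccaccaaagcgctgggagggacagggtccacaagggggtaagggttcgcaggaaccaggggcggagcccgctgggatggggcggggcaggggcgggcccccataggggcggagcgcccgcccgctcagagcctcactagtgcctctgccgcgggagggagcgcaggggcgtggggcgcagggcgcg

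Both strands were also searched for the RBPJ-type motif TGGGAA, which reads TTCCCA on the other strand. In the member promoters no match overlapped a match of another motif. *Jag1* held 1 CAGAC match, 209 bases before the start. *Dll1* held 1 match before start 1, on the other strand, and 2 matches with 1 TGATTCA before start 2. *Jag2* and *Notch1* held none. Of the other promoters found, *Nrarp* held 4 CAGAC matches, *Notch3* held 2 and *Notch2* none. The RBPJ-type letters were in none of the 8 member promoters. Among all 32851 mouse promoters of this length, 49.6% held CAGAC on either strand, 25.6% held TGGGAA and 7.81% held the AP-1-type motif, so a CAGAC match is common and describes letters, not binding. The counts are per gene and do not separate the starts of *Dll1*. No promoter was matched for *Hes1*, *Hey1* and *Heyl*.

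Taken per kilobase, the makeup of the ligand mRNA shifted toward *Jag1* under TGFβ1. On SB505124, *Jag1* made up 63.0% of the summed ligands (*Jag1*, *Jag2*, *Dll1*, *Dll3* and *Dll4*) in B73 and 73% in B87 with Smad4 off, and 49.6% and 57.4% with Smad4 on. On TGFβ1 it made up 88.0% and 94.4% with Smad4 off, and 92.4% and 94.1% with Smad4 on. Every TGFβ1 library thus had a higher *Jag1* share than every SB505124 library. *Jag2* went from 21.0% to 42.1% of the ligand mRNA on SB505124 down to between 0.989% and 9.68% on TGFβ1. *Dll1* stayed a minor ligand, at 2.09% to 15.2%, and was highest in the Smad4-on SB505124 library of B87. The summed ligand level was 11.9 to 22.1 CPM per kilobase on SB505124, 24.3 and 24.6 on TGFβ1 with Smad4 off, and 103.8 and 61.4 on TGFβ1 with Smad4 on. These shares are of mRNA and compare genes by exon length only.

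**Figure D3:**
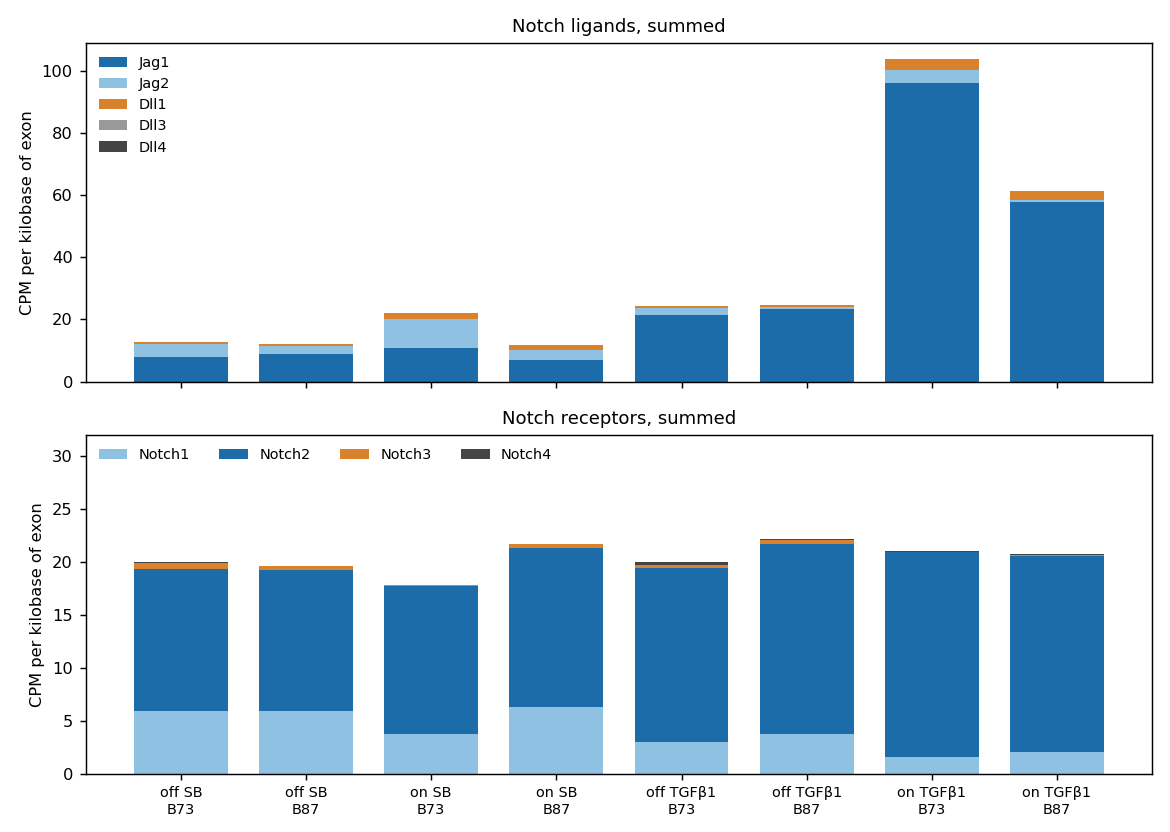
Summed level of the Notch ligands (top) and Notch receptors (bottom) in each library, in CPM per kilobase of exon, with each gene's part as a colored segment (off and on give the *Smad4* state, SB is SB505124). The ligand sum is 103.8 and 61.4 in the Smad4-on TGFβ1 libraries and 24.6 or less elsewhere, while the receptor sum stays between 17.8 and 22.2.

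Among the receptors, *Notch1* (chr2:26457903-26516663) fell with TGFβ1. It was at 84.6 CPM in B73 and 84.8 in B87 in Smad4-off cells on SB505124, at 53.8 and 89.5 in Smad4-on cells on SB505124, at 42.4 and 53.4 in Smad4-off cells on TGFβ1, and at 22.2 and 28.9 in Smad4-on cells on TGFβ1. The Smad4-on TGFβ1 libraries were the lowest, and each TGFβ1 library lay below every SB505124 library. Against SB505124, *Notch1* was 2.77-fold lower on TGFβ1 in Smad4-on cells (log2 fold change -1.47 ± 0.167, adjusted p = 0.000994). In Smad4-off cells the fall was 1.79-fold (-0.84 ± 0.161, adjusted p = 0.0184), and with Smad4 on against off under TGFβ1 it was 1.88-fold (-0.91 ± 0.166, adjusted p = 0.0252). Both of these falls no longer passed with no replicate block (0.192 and 0.247). The first was lost without any 1 of 3 Smad4-off libraries, all but the B87 library on SB505124 (0.0732 to 0.136), and the second without any 1 of the 4 TGFβ1 libraries (0.102 to 0.153). Under SB505124 the difference with *Smad4* was -0.28 (adjusted p = 0.531). Of the 75-base stretches of *Notch1* transcripts, 8.77% also lie in another gene, chiefly the antisense gene *0610009E02Rik*, which had at most 10 counts in any library.

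*Notch2*, the most abundant receptor, rose slightly with TGFβ1. It lay at 145 and 143 CPM in Smad4-off and at 150.1 and 162 CPM in Smad4-on cells on SB505124, and at 178 and 194 CPM and then 209 and 199.5 CPM on TGFβ1. The TGFβ1 libraries were all above the SB505124 libraries. The rise was 0.39 ± 0.083 in Smad4-on cells (adjusted p = 0.0128) and 0.36 ± 0.083 in Smad4-off cells (adjusted p = 0.0326), the latter lost with no replicate block (0.108) and without any 1 of the 4 Smad4-off libraries (0.0755 to 0.25). The rise in Smad4-on cells was lost without either library of B73 (0.0807 and 0.0852). Neither difference with *Smad4* passed (0.14, adjusted p = 0.364, under TGFβ1 and 0.12, adjusted p = 0.631, under SB505124).

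*Notch3* was low throughout. In Smad4-off cells it was at 4.59 and 2.77 CPM on SB505124 and at 2.40 and 2.94 on TGFβ1, and in Smad4-on cells at 0.919 and 2.54 on SB505124 and at 0.459 and 1.22 on TGFβ1, the last from 9 and 24 counts. In each line the Smad4-on library was below its Smad4-off partner. The difference with *Smad4* was -1.70 ± 0.571 (adjusted p = 0.134) under TGFβ1 and -1.17 ± 0.521 (adjusted p = 0.42) under SB505124, where B73 was at -2.21 and B87 at -0.12. With no filter on low counts the difference under TGFβ1 passed (adjusted p = 0.00846).

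The receptor sum stayed between 17.8 and 22.2 CPM per kilobase in all libraries while its makeup moved from *Notch1* to *Notch2*. *Notch2* made up 67.2% to 78.1% of the summed receptors (*Notch1* to *Notch4*) on SB505124, 82.5% and 81.1% on TGFβ1 with Smad4 off, and 91.9% and 89.2% on TGFβ1 with Smad4 on. *Notch1* went the other way, from 21.2% to 30.4% on SB505124 to 7.41% and 9.78% in the Smad4-on TGFβ1 libraries.

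Among the targets, *Hes1*, a transcriptional repressor and the classical readout of Notch, rose with TGFβ1. In the fit over both lines the rise was about the same in both *Smad4* states. On SB505124 it was at 28.1 CPM in B73 and 28.0 in B87 with Smad4 off, and at 40.0 and 30.6 with Smad4 on. On TGFβ1 it was at 54.0 and 58.6 CPM with Smad4 off, and at 67.3 and 78.3 with Smad4 on. The TGFβ1 libraries all lay above the SB505124 libraries. The rise was 1.05 ± 0.150 in Smad4-on cells (2.07-fold, adjusted p = 0.00254) and 1.01 ± 0.151 in Smad4-off cells (2.01-fold, adjusted p = 0.00755), the second of them barely past the 2-fold limit of the call. It no longer passed without either B87 library of the Smad4-off cells (0.0518 and 0.0757). By line, the rise was 0.75 in B73 and 1.35 in B87 with Smad4 on, and 0.94 and 1.06 with Smad4 off. It was thus smaller with Smad4 on in B73 and larger in B87. The differences with *Smad4* were 0.37 (adjusted p = 0.187) under TGFβ1 and 0.33 (0.435) under SB505124, and neither passed.

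*Nrarp*, a feedback inhibitor of the Notch complex, was at 5.29 and 5.54 CPM with Smad4 off and at 3.03 and 3.54 with Smad4 on under SB505124, and at 4.67 and 4.98 and then 3.16 and 2.04 under TGFβ1. The 4 Smad4-on libraries all lay below the 4 Smad4-off libraries. The difference with *Smad4* did not pass, at -0.89 ± 0.263 (adjusted p = 0.0969) under TGFβ1 and -0.72 ± 0.255 (adjusted p = 0.306) under SB505124, and with no filter on low counts that under TGFβ1 passed (0.0363). TGFβ1 gave -0.34 (adjusted p = 0.368) with Smad4 on and -0.17 (0.711) with Smad4 off. The values are uncertain because 76.1% of the 75-base stretches of *Nrarp* also lie in the antisense gene *Gm38287*, which was listed at 0 counts in all libraries, and the strand setting of the counting was not given in the sources used here.

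*Hey1*, a related repressor, was near the detection floor in B73 and above it in B87. It was at 0.204 to 0.324 CPM (4 to 6 counts) in the B73 libraries and at 1.22 to 2.0 CPM (24 to 48 counts) in the B87 libraries. No condition changed it past the test, with adjusted p from 0.163 to 0.911 in the 4 contrasts. *Heyl* had 17 counts (0.847 CPM) in the Smad4-off TGFβ1 library of B87 and 0 or 1 count in the other 7, so it was undetected at this depth in those. That B87 library was also the highest in the endothelial marker list, at 26.1 CPM, of which *Kdr* made up 25.2. Of this list, 3 of 6 genes had over 3 counts in some library, and its sum was 0.811 to 7.24 CPM in the others. The part of these values in the *Heyl* counts was not tested.

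Whether the *Smad4* effect differed between treatments was tested as an interaction. In edgeR it called 0 of the 9 members, against 0.189% of all genes, and 3 had an unadjusted p under 0.05. For *Jag1* the *Smad4* effect was greater by 1.71 ± 0.335 under TGFβ1 (adjusted p = 0.152), by 1.72 in B73 and by 1.69 in B87. This difference passed in DESeq2 with the line in the model (adjusted p = 0.000101) and with no replicate block (0.0126), and in edgeR with no filter on low counts (1.87e-05), so that DESeq2 called 1 member. These settings called more genes of the whole series. The interaction was called as higher in 8 genes and lower in 19 in the main fit. It was called in 37 and 97 in DESeq2 with the line, and in 61 and 223 with no filter. For *Dll1* the difference was 1.13 ± 0.256 (adjusted p = 0.199) and for *Notch1* -0.63 ± 0.230 (adjusted p = 0.395).

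The lines themselves differed in a pair of members. Between B87 and B73, 2 of 9 members were called, against 8.37% of all genes. *Hey1* was 5.87-fold higher in B87 (2.55 ± 0.256, adjusted p = 0.00094), and *Jag2* was 3.00-fold lower (-1.59 ± 0.298, adjusted p = 0.0121). *Notch1* was 0.36 higher on the log2 scale in B87 (adjusted p = 0.075). For a line difference in the response to TGFβ1, edgeR called 0 members, against 0% of all genes, with none at an unadjusted p under 0.05. DESeq2 with the line also called 0 members, where it called 15 genes higher and 10 lower over the series. A test that called no gene cannot show that the members respond alike in the lines. In the effect of *Smad4*, 0 members were called and 1 passed, against 0.392% called and 0.406% passed over all genes, with 2 at an unadjusted p under 0.05 and 0 called in DESeq2. The member that passed was *Jag1*, whose *Smad4* effect was smaller in B87 by 0.84 on the log2 scale.

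The rest of the pathway was followed with 54 further genes, of which 40 were tested. *Dll3*, *Hes2*, *Hes3*, *Hes5*, *Hes7*, *Helt*, *Rbpjl*, *Mfng* and *Dtx1* had 3 counts or fewer in every library. With Smad4 on against off under TGFβ1, 1 of 40 was called and 2 passed, 1 in each direction. Of all genes, 3.12% were called and 6.8% passed. Under SB505124, 0 were called in edgeR, against 1.09% of all genes, with 6 at an unadjusted p under 0.05 and 0 called in DESeq2. With TGFβ1 in Smad4-on cells, 4 were called and 15 passed, 8 higher and 7 lower, where 13.9% of all genes were called and 33.2% passed. In Smad4-off cells 2 were called and 6 passed, 3 in each direction, where 5.93% of all genes were called and 13.2% passed. The median log2 fold change over the list was between 0.01 and 0.09 in the 4 contrasts, and that over all genes was between -0.02 and 0.00. By group, 5 of 9 genes of receptor turnover passed as higher with TGFβ1 in Smad4-on cells and none as lower, and 2 of 4 glycosylation genes passed as lower and none as higher, where 15.6% of all genes passed as higher and 17.6% as lower. Of the 12 nuclear complex genes, 2 passed as higher and 1 as lower, and of the 3 sheddase and convertase genes, 1 passed in each direction. As lower passed 1 of 6 γ-secretase genes, 1 of 3 of ligand endocytosis and 1 of 2 other receptors and ligands, with none higher, and the 1 other HES or HEY gene tested did not pass.

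The pathway genes that were called belong to the ligand side or to receptor processing and turnover. *Neurl1b*, an E3 ubiquitin ligase of ligand endocytosis, was at 64.4 CPM in B73 and 61.7 in B87 with Smad4 off and at 82.2 and 38.4 with Smad4 on under SB505124, and at 18.8 and 15.3 and then 8.57 and 3.26 under TGFβ1. It fell by 3.35 ± 0.327 on the log2 scale with TGFβ1 in Smad4-on cells (adjusted p = 0.000574) and by 1.92 ± 0.296 in Smad4-off cells (0.0085). It also fell by 1.6 ± 0.328 with Smad4 on under TGFβ1 (0.0364), a call lost without any 1 of the 4 TGFβ1 libraries (0.0568 to 0.159). All 4 TGFβ1 libraries lay below the SB505124 libraries. *Dlk2*, a Delta-like protein that lacks the receptor-binding DSL domain, fell by 3.08 ± 0.334 in Smad4-on cells (adjusted p = 0.000844), from 27.6 and 35.9 to 1.74 and 6.47 CPM, and by 2.35 ± 0.332 in Smad4-off cells (0.00631), from 13.4 and 23.5 to 3.00 and 4.04 CPM.

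With no replicate block 3 of these calls were lost, those of *Neurl1b* with *Smad4* (adjusted p = 0.305) and with TGFβ1 in Smad4-off cells (0.14) and that of *Dlk2* in Smad4-off cells (0.129). The last 2 were also lost when a library was left out, *Neurl1b* without the TGFβ1 library of B73 (0.0693) and *Dlk2* without that of B87 (0.0726). *Furin*, the convertase that makes the mature receptor, rose with TGFβ1 by 1.33 ± 0.093 in Smad4-on cells (adjusted p = 0.000181), from 163 and 139 to 427 and 333 CPM. In Smad4-off cells it rose by 0.99 ± 0.092 (adjusted p = 0.00156), which passed but stayed just under 2-fold. With Smad4 on against off under TGFβ1 it was higher by 0.49 ± 0.091 (0.0266), which also passed. *Dtx4*, an E3 ubiquitin ligase of the Deltex family, rose with TGFβ1 by 1.11 ± 0.172 in Smad4-on cells (adjusted p = 0.00339), from 30.6 and 37.9 to 85.9 and 64.5 CPM. Its rise in Smad4-off cells was 0.68 ± 0.167 (adjusted p = 0.0403), which passed but was under 2-fold.

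**Figure D4:**
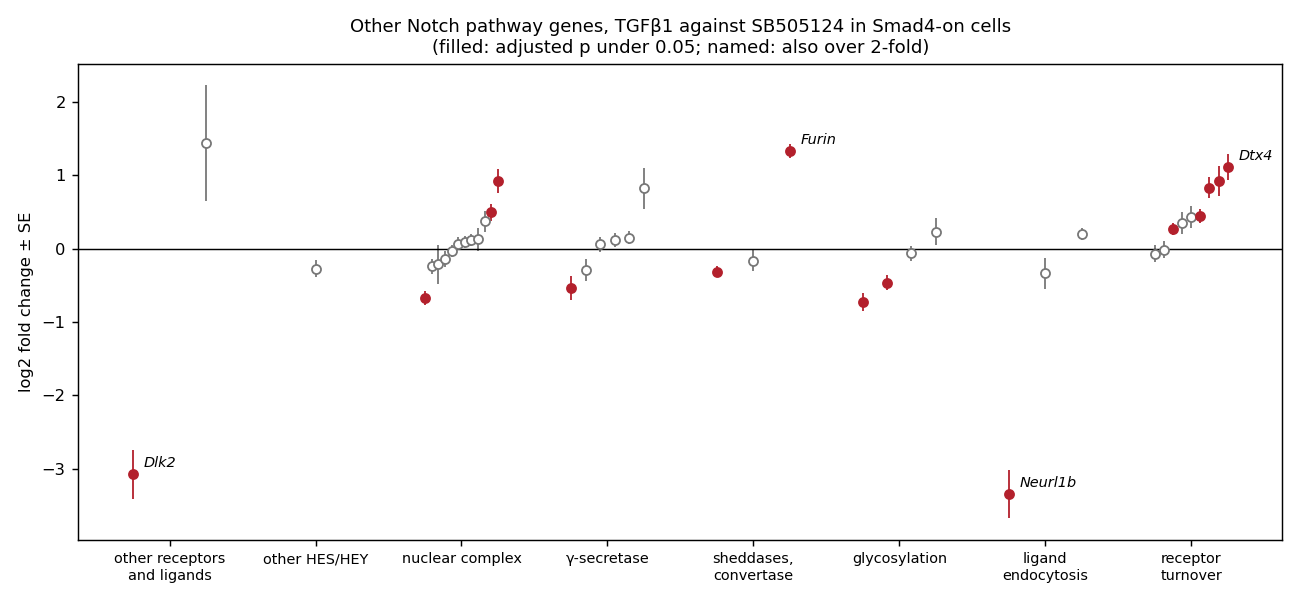
Log2 fold change with its standard error of the 40 tested further pathway genes with TGFβ1 against SB505124 in Smad4-on cells (4 libraries), by function. Filled points have an edgeR adjusted p under 0.05 and named genes were also over 2-fold. *Dlk2* (-3.08) and *Neurl1b* (-3.35) are far below the rest, and the points of receptor turnover lie near or above 0.

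The summed mesenchymal markers moved with the conditions, and the summed fibroblast markers were, within each line, lowest in the Smad4-off SB505124 library and highest in the Smad4-on TGFβ1 library. The summed mesenchymal list (*Vim*, *Fn1*, *Cdh2*, *Zeb1*, *Snai1* and *Snai2*, all 6 detected) was 4570 to 5080 CPM (Smad4 off) and 5450 to 6611 CPM (Smad4 on) in the SB505124 groups, and 8358 to 9787 and 12770 to 14330 CPM in the TGFβ1 groups. Like *Jag1*, it was highest in the Smad4-on TGFβ1 libraries. *Fn1*, at 1141 to 8559 CPM over the libraries, and *Vim*, at 3124 to 5319, made up most of this sum. *Cdh2* ran only from 201 to 333 CPM, *Zeb1* from 64.3 to 98.7, *Snai1* from 0.499 to 41.8 and *Snai2* from 6.98 to 11.1. The fibroblast list, with 5 of 7 genes over 3 counts in some library, was at 14.5 to 64.5, 63.3 to 282, 38.4 to 313 and 203.5 to 1348 CPM in the same order of groups. *Acta2*, at up to 701 CPM, and *Col1a1*, at up to 627 CPM in B87 and 5.10 CPM in B73, made up most of the highest sums, and *Lum* was at 0. The summed ductal or epithelial list, all 7 genes detected, was at 2109 to 4016, 1690 to 6209, 1301 to 3944 and 1218 to 5790 CPM. The groups overlapped, and in each *Smad4* state both ends of the range were lower on TGFβ1. Over the libraries *Cdh1* ran from 11.5 to 469 CPM, *Krt7* from 12.6 to 649 and *Krt8* from 236 to 2410. *Krt18* ran from 592 to 2428, *Krt19* from 153 to 1575 and *Sox9* from 26.6 to 73.3. The part of these lists in the changes of *Jag1*, *Notch1* and *Hes1* was not tested, and in bulk libraries a change in the share of cells and in RNA per cell cannot be told apart.

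The genes most like the called ligands in their pattern over the 8 libraries were ranked by root mean square difference of centred log2 CPM, among 11099 genes. Closest to *Dll1* was *Smad4* itself, at 0.318, followed by *Havcr2* at 0.490 and *Trim36* at 0.494, where the median over all genes was 1.07. Closest to *Jag1* were *Lpin3* at 0.263, *Plin2* at 0.309 and *Bhlhe40* at 0.319, with a median of 1.33. Closest to *Jag2* were *Evpl* at 0.290, *Ildr2* at 0.329 and *Ank1* at 0.388, with a median of 1.22. These are descriptions over libraries that share their treatments and lines. *Dll1* was taken for its change with *Smad4* state, which the design sets, so its nearness to *Smad4* follows in part from that choice.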

How the data were processed

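RNA-seq was done on 8 stranded poly(A) libraries read as single ends. The authors trimmed adaptors, aligned to GRCm38 (mm10) and deposited raw counts per gene. The submitters' processing notes list Trimmomatic 0.36, STAR 2.5.3a and featureCounts 1.6.3. Strand and multi-mapping settings were not given in the sources used here. Per-library depth is given above.

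The deposited counts were tested with edgeR 4.0.16 in R 4.3.3 (TMM, filterByExpr, 14301 genes kept, quasi-likelihood F-test, Benjamini-Hochberg adjustment). A single model held the 4 groups and the cell line, with 3 residual degrees of freedom. The study names no covariate and used DESeq2. The standard error of a log2 fold change was its size over the root of F. Per-line changes use log2 CPM with a prior count of 2. Thresholds were an adjusted p of 0.05 and 2-fold. The line named in each title pairs libraries across groups: line differences correlated between groups at 0.642 to 0.774 (6 group pairs).

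Alternatives were edgeR with no replicate block, DESeq2 1.42.0 with the line or with no replicate block, DESeq2 size factors, no filter beyond 1 count, no 2-fold rule and leaving out each library. Promoters and exon lengths came from RefSeq and GENCODE M21. Named genes were all members, *Smad4*, pathway genes called in a two-group contrast or at 3 counts or fewer throughout, and the 3 genes nearest in pattern to each of 3 called members. Cell-type marker genes were named from lists, some after their values were seen. The members and lists were chosen with earlier results of these data known. The tests were tested on simulated data. A further allele of the model is not reported here.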

Additional observations from a re-analysis of the deposited data

Results flagged for a closer look

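The effect of Smad4 on *Jag1* differed between the lines. In a model with a term for the line by *Smad4* state, the change with *Smad4* was smaller in B87 than in B73 by 0.84 on the log2 scale (-0.84 ± 0.113, adjusted p = 0.0457 in edgeR), and a test of that difference is what singled it out. In B73 the change with *Smad4* was 2.16 under TGFβ1 and 0.45 under SB505124, and in B87 it was 1.31 and -0.38. The difference stayed past the test in DESeq2 (adjusted p = 2.25e-05), with DESeq2 size factors (0.0432) and with no filter on low counts (7.14e-06). Over all genes this line difference was called as higher in 28 and lower in 28 in the main fit. It was called in 55 and 48 in DESeq2 with the line, and in 238 and 161 with no filter. Each line had 1 library per condition.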

How the results depend on the processing

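Of 51 individual changes recomputed, all 51 kept their direction and side of the threshold with DESeq2 size factors, 48 in DESeq2 with the line and 45 with no filter. Of 46 such changes, 36 did so with no replicate block, and the other 10 lost it. Of 392 values with a library left out, 346 kept it, 34 lost it, 5 gained it and 7 reversed. The number of members called with Smad4 on under TGFβ1 (2) was 1 with no replicate block and 1 to 2 with a library left out. Under SB505124 (1) it was 0 with no replicate block and 0 to 1 with a library left out. With TGFβ1 in Smad4-on cells (4) it was 2 to 4 with a library left out. In Smad4-off cells (2) it was 1 with no replicate block, 4 with no 2-fold rule and 0 to 3 with a library left out. For the interaction (0) it was 1 in DESeq2 with the line, 1 in DESeq2 with no replicate block and 1 with no filter. For the line difference in the *Smad4* effect (0) it was 1 with no filter and 1 with no 2-fold rule, and leaving out libraries was not run for the line differences. The reversed values belonged to changes that did not pass, and their ranges with a library left out were -0.59 to 1.01 for *Jag2* with *Smad4* under TGFβ1, -0.24 to 0.33 for *Jag1* with *Smad4* under SB505124, -0.75 to 0.012 for *Nrarp* with TGFβ1 in Smad4-on cells, and, with TGFβ1 in Smad4-off cells, -1.23 to 0.43 for *Notch3* and -0.14 to 0.16 for *Hey1*. Over all genes, calls with Smad4 on under TGFβ1 were 188 higher and 258 lower, and 16 and 20 with no replicate block. Under SB505124 they were 91 and 65, and 1 and 1. With TGFβ1 they were 804 and 1189, and 447 and 588, in Smad4-on cells, and 445 and 403, and 121 and 47, in Smad4-off cells. Leaving out a library lowered these totals by over 1.5 times in 3 contrasts. With Smad4 on under TGFβ1 they were 57 and 99 without the Smad4-off TGFβ1 library of B73, 107 and 109 without that of B87, and 93 and 128 without the Smad4-on TGFβ1 library of B73. Under SB505124 they were 24 and 28 without the Smad4-off library of B73, 48 and 43 without that of B87, and 21 and 25 without the Smad4-on library of B73. With TGFβ1 in Smad4-off cells they were 251 and 262 without the SB505124 library of B87, and 319 and 156 or 226 and 151 without the TGFβ1 library of B73 or B87. With no filter on low counts, which tested 27770 genes, the calls with Smad4 on under TGFβ1 rose to 293 and 490. The cause of these differences was not tested. At these depths *Hey1* in B73 and *Heyl* were near or below the floor.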
